A study of Homo sapiens with 4 samples.

Results

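Of the 7251 transcript isoforms that the study listed as changed after loss of METTL3, 699 carried a clone name instead of a gene symbol. A clone name is the label of the genomic clone on which a transcript was first annotated. The members were chosen by name alone: RP with digits and a hyphen, CTA to CTD with a hyphen, or AC, AL, AP, AF, Z or BX with at least 5 digits. The 699 isoforms fell under 675 names, and 6552 isoforms under other names made up the rest of the table. The study used HepG2, an established human hepatocellular carcinoma line, transfected with siRNA against METTL3 or with a scrambled control. Transfection was repeated after 48 and 96 hours and cells were harvested on day 7, with 2 libraries of poly(A)-selected RNA per group on a Genome Analyzer IIx. The labels do not say whether the 2 libraries of a group came from separate cultures, so p-values measure only the spread between these libraries, which may be technical.

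The enzyme METTL3 methylates adenosines in messenger and long noncoding RNA, and the resulting mark, N6-methyladenosine, affects splicing, stability and translation. Genes listed under clone names are a mixed group: coding genes, long noncoding RNAs, pseudogenes (copies of genes that have lost their coding function) and small RNAs. A processed pseudogene arises when a messenger RNA is copied back into DNA, and it therefore resembles the spliced transcript of its parent gene.

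The isoform table held 1 FPKM value (fragments counted on a transcript, scaled to its length and to the size of the library) per group and no value per library. It listed only isoforms past the authors' own thresholds, so isoforms that did not change are absent, and the counts below describe listed isoforms. METTL3 itself fell from 35.6 to 7.47 FPKM, and its gene-level normalized count fell from 955 to 241. None of the 10 hepatocyte and HepG2 markers was listed in the isoform or the gene table, so the identity of the line could not be checked from them. Markers of other cell types were listed: 3 of 4 fibroblast markers (LUM, DCN and COL3A1) were lower in 6 of 6 isoforms, LUM from 210 to 41.6 FPKM. Of 3 endothelial, 3 blood and 3 neural markers, only 1 each was listed, and each was higher. These were CDH5 (endothelial, 1.92 to 14.7 FPKM), CD14 (blood, 0.0789 to 0.597 FPKM) and SYP (neural, 0.599 to 1.54 FPKM). Their part in the results below was not tested. In bulk RNA, fewer cells of a type and less RNA per cell cannot be told apart.

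The label "unnamed" held for only some of the members. GENCODE 29 on GRCh38, a later annotation than the study's hg18-era one, contained 172 of the 699 transcript identifiers, against 74.5% of the identifiers of the other isoforms. Of the 172, 136 lay where the order of the authors' rows put them and were accepted as placed; 36 lay elsewhere and were not used. A further 527 identifiers were not found. Of the 136 placed isoforms, 110 belonged to 99 genes that have a symbol in GENCODE 29, 26 still had a clone name, and 1 kept its name unchanged. Whether a gene already had a symbol at the time of the study was not checked. By gene type, 71 placed isoforms were protein coding, 31 were processed pseudogenes, 19 were long noncoding RNAs, 12 were unprocessed pseudogenes (duplicated gene copies) and 3 were small RNAs.

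The sequences that matter most to reading these values are those of short RNAs and of pseudogenes that nearly match a parent gene. The 3 placed small RNAs follow, the first as its mature product from RefSeq (GRCh38.p14) at chr19:46709294-46709311 on the minus strand, with the seed (bases 2 to 8) in capitals. The other pair are GENCODE transcripts on GRCh38: a U6 spliceosomal RNA copy at chr10:101622859-101622965 on the plus strand, and RF00019, a Y RNA copy, at chr12:120504571-120504659 on the minus strand.
hsa-miR-320e: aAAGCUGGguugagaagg
RNU6-1165P: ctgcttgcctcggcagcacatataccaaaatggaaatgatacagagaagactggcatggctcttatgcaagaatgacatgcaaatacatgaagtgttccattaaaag
RF00019: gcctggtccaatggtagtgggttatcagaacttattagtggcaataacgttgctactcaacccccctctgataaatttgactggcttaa

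A pair of processed pseudogenes shows how closely a member can follow its parent. COX17P1, at chr13:46490930-46491121 on the plus strand, is a copy of COX17, a copper chaperone for cytochrome c oxidase. SPTLC1P2, at chr6:23856698-23856818 on the minus strand, is a copy of part of SPTLC1, a subunit of the enzyme that starts sphingolipid synthesis. Capitals mark the aligned bases that differ from the parent's transcript. SPTLC1P2 is 121 bases long, and its bases after base 118 did not align and are not marked. COX17P1 differed at 4 of 192 aligned bases (97.9% identity) and SPTLC1P2 at 2 of 118 (98.3%).
COX17P1: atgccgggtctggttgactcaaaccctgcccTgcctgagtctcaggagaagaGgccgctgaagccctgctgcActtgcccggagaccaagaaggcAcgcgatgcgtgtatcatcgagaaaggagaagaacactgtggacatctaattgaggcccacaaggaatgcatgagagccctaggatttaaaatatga
SPTLC1P2: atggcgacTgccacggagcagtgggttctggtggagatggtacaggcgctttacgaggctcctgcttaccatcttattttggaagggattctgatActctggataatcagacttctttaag

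Across all 699 clone-named isoforms, as many were higher as lower in the knockdown. In total 352 were higher and 347 lower (50.4% higher, 95% exact binomial interval 46.6 to 54.1%, which covers counting error only). Of all listed isoforms, 46.7% were higher and 53.3% lower, so the members' split lay close to the background. The median FPKM in the group where each isoform was higher was 2.44 (quartiles 0.396 and 14.5), against 2.87 (quartiles 0.955 and 8.57) for the other isoforms. The members thus had a wider spread of levels around a similar middle. Their higher group value was under 0.1 FPKM in 11.2% of cases and at least 10 FPKM in 31.6%, against 3.95% and 22.4% of the other isoforms.

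What set the members' values apart was how often 1 group was listed at exactly 0, and this came mostly from members that could not be placed. This held for 316 of 699 clone-named isoforms (45.2%, interval 41.5 to 49.0%), against 15.2% of the other isoforms and 18.1% of the whole table. In 200 cases the control was at 0, and in 116 the knockdown. Of the 136 placed members only 22 (16.2%) were at 0 in 1 group, a share near that of the other placed isoforms (672 of 4795). Among members whose identifier was not found the share was 51.0% (269 of 527), and among those found elsewhere 69.4% (25 of 36). The excess was thus seen in members without an accepted place, and its cause was not tested. An exact 0 in a table without counts may be a failed estimate, so no fold is given against it. Among the 383 clone-named isoforms with both groups above 0, 152 were higher and 231 lower. In the authors' deposited table, the median log2 fold change of the rises was 1.55 and of the falls −1.61, against 1.58 and −1.54 for the other isoforms. Of the members at 0 in 1 group 63.3% were higher, near the 61.3% of the whole table, and of those with both groups above 0 39.7% were higher, against 43.7% of the other isoforms.

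**Figure D1:**
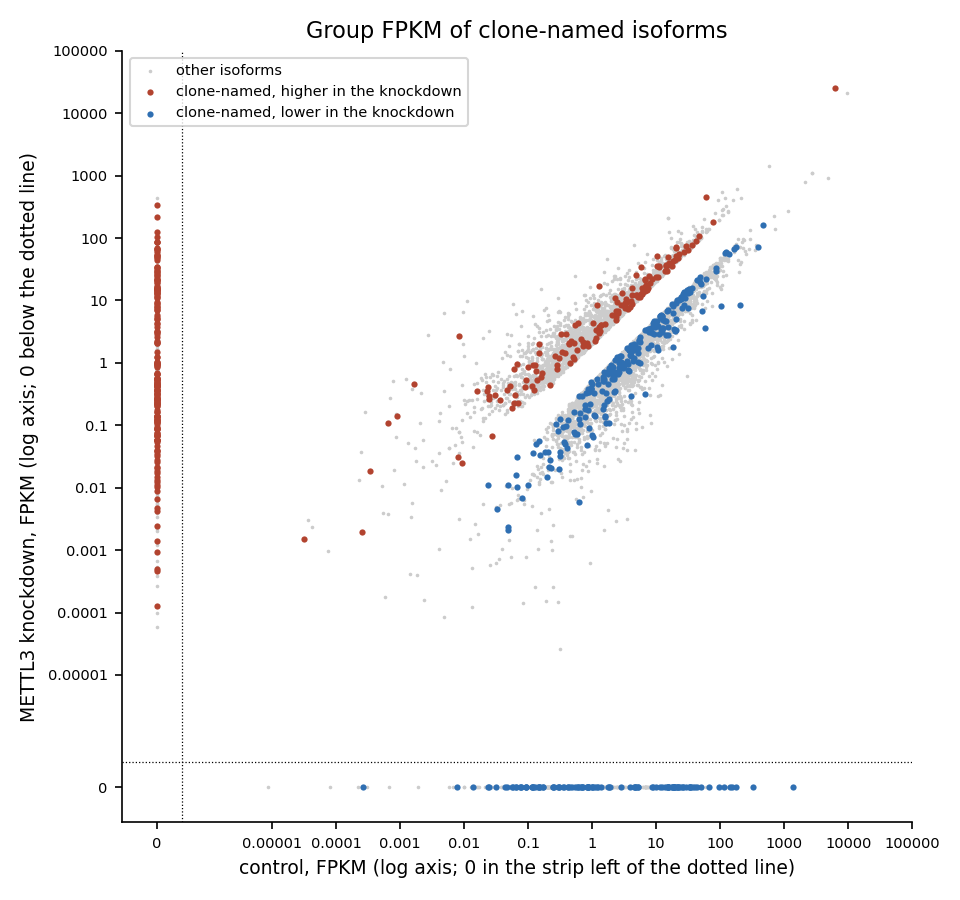
FPKM in the control (x axis) and in the METTL3 knockdown (y axis), both on log axes, with 1 point per isoform; values of 0 are drawn in the strips beyond the dotted lines. Clone-named isoforms (red higher, blue lower in the knockdown) lie among the other isoforms (grey), and 316 of 699 lie in a strip at 0; the empty diagonal is the authors' threshold of 2-fold.

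The naming families were described one by one, and each of them held members in both directions. The 362 isoforms named after AC clones included 166 higher and 196 lower, and their median higher-group value was 3.44 FPKM. The 136 AL isoforms included 80 higher and 56 lower at a median of 1.79 FPKM, and 55.1% of them were at 0 in 1 group. The 100 RP11 isoforms, named after a human clone library, had a lower median of 0.684 FPKM, with 54 higher and 46 lower. The 48 isoforms of other RP libraries had a median of 0.934 FPKM, with 27 higher and 21 lower. The 37 AP and AF isoforms, the 12 Z and BX isoforms and the 4 CTA to CTD isoforms split 17 to 20, 6 to 6 and 2 to 2. In no family of at least 10 isoforms was the share at 0 below 25%, whereas it was 12.2% among the 434 isoforms with pseudogene-type symbols and 83.3% among the 210 with small RNA symbols.

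**Figure D2:**
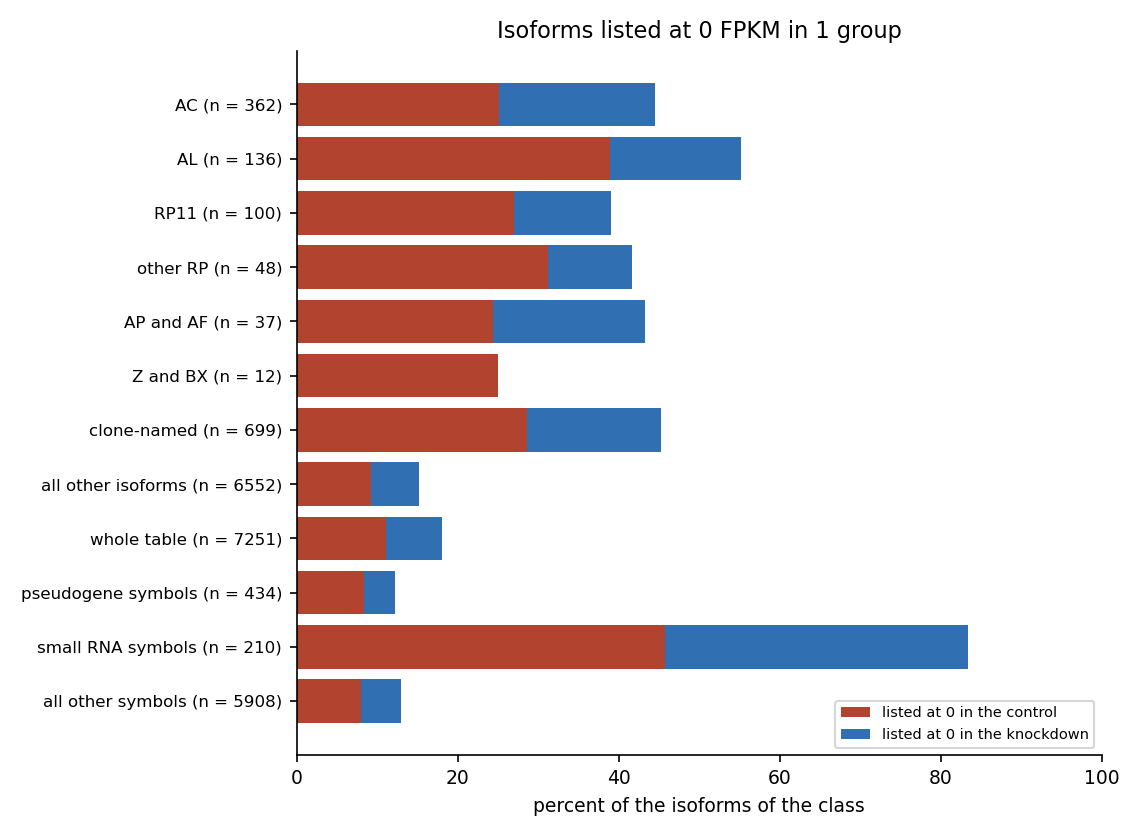
Percent of isoforms listed at 0 FPKM in the control (red) or in the knockdown (blue), by naming family and by symbol class, with n isoforms in brackets. Clone-named isoforms (45.2%) lie between isoforms with small RNA symbols (83.3%) and the remaining classes (12.2 to 18.1%).

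Values of 0 were frequent in one run of Ensembl transcript numbers. The run was picked because it held the most members at 0, so its high share at 0 among members follows partly from that choice. Numbers from 380000 to 389999 held 173 clone-named isoforms, of which 137 (79.2%) were at 0 in 1 group, against 34.0% of the 526 outside the run. The members in this run had a median higher-group value of 10.8 FPKM, against 1.89 FPKM outside it. In the same run, 53 of 65 isoforms with small RNA symbols were at 0 (81.5%), at a median of 13.7 FPKM, whereas isoforms with other symbols were at 0 in 16.2% of cases. Of the 2792 GENCODE transcripts with numbers in the run, 50.1% were protein coding. Small RNAs made up 40.7%, mainly spliceosomal RNAs, microRNAs, other short RNAs and small nucleolar RNAs. The share of small RNAs outside the run was not computed, so 40.7% cannot be called high or low. Only 9 of the 173 could be placed, so the type of the rest is not known here.

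The 3 placed small RNAs were all lower in the knockdown, whereas of the 210 isoforms with small RNA symbols 117 were higher and 93 lower; 3 isoforms are too few to set against that share. MIR320E, a microRNA of the miR-320 group, was listed at 143 FPKM in the control and at 0 in the knockdown. RF00019 was listed at 35.2 FPKM in the control and at 0 in the knockdown. RNU6-1165P fell from 15.3 to 3.70 FPKM. Their transcripts are 53, 89 and 107 bases long in GENCODE, and FPKM divides by length, so a few fragments on such a transcript give a high value. Poly(A) selection does not capture mature microRNAs, and what these reads come from was not tested.

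The highest levels belonged mostly to isoforms that could not be placed. AC093616.5 rose from 6144 to 25779 FPKM, the highest value of any member. AL050333.18-1 rose from 60.4 to 454 FPKM and AC009244.25-1 from 76.2 to 181 FPKM. RP3-522D1.2 fell from 467 to 161 FPKM, and AC122179.6-1 from 205 to 8.36 FPKM. Among isoforms at 0 in 1 group, AC097526.3-16 was listed at 1364 FPKM in the control and 0 in the knockdown. AC015726.8 was listed at 0 in the control and 335 FPKM in the knockdown. All of these are annotated in the files by name only, and their gene type is not known here.

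The largest rises began at very low levels, while the largest falls spanned a wide range of levels. RP11-159J16.1 went from 0.00848 to 2.66 FPKM, a log2 fold change of 8.29 in the authors' deposited table. The rises next in size in the authors' deposited table, AL138799.9 and AC090625.5-2, began at 0.00165 and 0.000653 FPKM. The largest fall was AC106782.5-1, from 0.626 to 0.00584 FPKM, a log2 fold change of −6.74 in the authors' deposited table. Of the 10 largest rises, only RP11-159J16.1 exceeded 1 FPKM in either group. Among the 10 largest falls, AC122179.6-1 began at 205 FPKM, RP4-647M16.1 fell from 58.6 to 3.61 FPKM and RP11-345I18.3 from 6.73 to 0.318 FPKM. The authors' deposited table gave 201 members a p-value of exactly 0, including 25 whose higher group value was under 0.1 FPKM.

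Members placed in protein-coding genes were split 29 higher to 42 lower, and 12.7% were at 0 in 1 group. These shares lay near those of the other placed coding isoforms, of which 46.0% were higher and 10.6% were at 0. SPINK13, which encodes a Kazal-type serine protease inhibitor (chr5:148268860-148286210, plus strand, GRCh38), fell from 386 to 71.7 FPKM. It was the highest coding member in the control. DRAM1, a lysosomal membrane protein and p53 target that takes part in autophagy (chr12:101877351-101923623, plus strand), rose from 20.3 to 69.2 FPKM. SPPL2A, an intramembrane protease, fell from 61.0 to 22.5 FPKM. AAGAB, a chaperone of clathrin adaptor complexes, fell from 49.1 to 19.7 FPKM. MTR, methionine synthase, which regenerates methionine from homocysteine, fell from 9.22 to 2.88 FPKM.

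Further coding members rose. GPCPD1, a glycerophosphocholine phosphodiesterase, rose from 2.86 to 8.37 FPKM. TADA2B, an adaptor of the SAGA histone acetyltransferase complex, rose from 4.04 to 9.63 FPKM. NCR3LG1, a ligand of the natural killer cell receptor NKp30, rose from 7.17 to 15.7 FPKM. B4GAT1, a glycosyltransferase that acts on dystroglycan, rose from 10.8 to 23.3 FPKM. DERL1, which takes part in the export of misfolded proteins from the endoplasmic reticulum, rose from 15.8 to 39.4 FPKM.

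**Figure D3:**
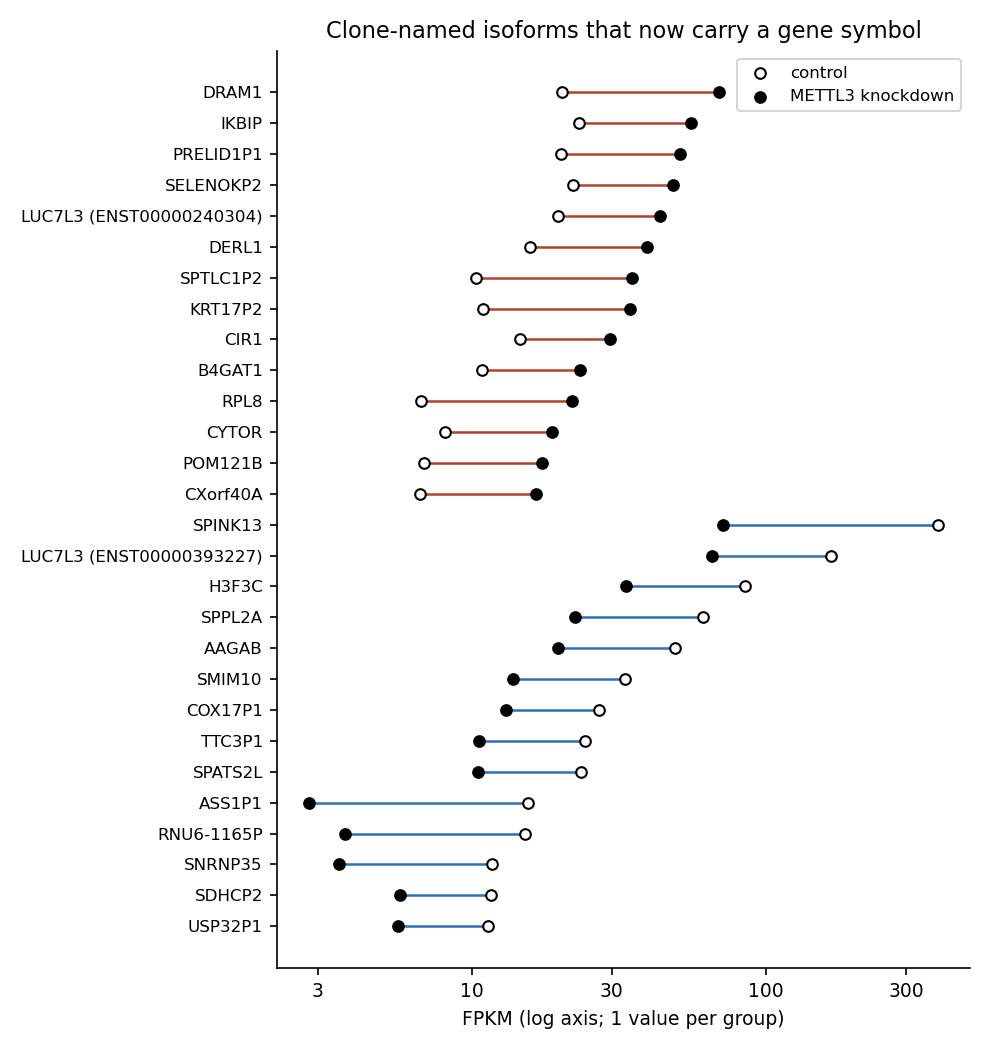
FPKM in the control (open circles) and in the METTL3 knockdown (filled circles), on a log axis, for the 14 highest placed members with a gene symbol and both groups above 0 in each direction. Red lines rise and blue lines fall; SPINK13 spans 386 to 71.7 FPKM and DRAM1 20.3 to 69.2 FPKM.

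RefSeq promoter windows (250 bases before to 50 after the gene start, GRCh38.p14) were matched for 45 genes of placed members, which had 63 windows in all because some genes have several starts. Their median GC content was 66.3% with a median of 25 CG dinucleotides, against 58.7% and 14 over 35116 windows of 27305 genes; a gene with several windows counts once for each. TATAAA, searched on both strands, occurred in 2 of the 63 windows (3.17%), against 11.5% of all windows. Most of the matched genes were coding and none was a pseudogene, whereas the background was every gene with a window. Other listed coding genes were not compared, so these differences cannot be called particular to clone-named members. The windows of SPINK13 and DRAM1, the coding members described first above, are given as examples of a fall and a rise. The SPINK13 window had 49.7% GC and 3 CG dinucleotides, and the DRAM1 window 74.3% and 42; neither held TATAAA. The RefSeq starts are not the GENCODE starts of the placed isoforms. The DRAM1 isoform begins at chr12:101877351, so most of the bases shown for DRAM1 lie inside that isoform. The SPINK13 isoform begins at chr5:148268860, after the bases shown. The 250 bases before each RefSeq start are shown, at chr5:148268544-148268793 and chr12:101877330-101877579, both on the plus strand, with CG in capitals.
SPINK13: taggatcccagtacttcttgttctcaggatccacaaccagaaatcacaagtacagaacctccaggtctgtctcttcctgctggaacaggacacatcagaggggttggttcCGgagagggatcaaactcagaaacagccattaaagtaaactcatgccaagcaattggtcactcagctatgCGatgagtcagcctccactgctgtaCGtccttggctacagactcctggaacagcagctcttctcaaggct
DRAM1: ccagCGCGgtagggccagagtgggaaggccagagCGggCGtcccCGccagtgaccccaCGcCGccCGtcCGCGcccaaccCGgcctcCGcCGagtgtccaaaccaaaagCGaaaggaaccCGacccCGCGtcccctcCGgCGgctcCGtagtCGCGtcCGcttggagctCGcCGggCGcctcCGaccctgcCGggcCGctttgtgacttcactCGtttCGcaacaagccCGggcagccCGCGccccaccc

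The 19 long noncoding members were more often lower than higher, 13 to 6, and the 21 other placed long noncoding isoforms split 17 to 4. The highest that rose was CYTOR, a cytoplasmic long noncoding RNA studied in cancer cells, from 8.12 to 18.8 FPKM. LINC00887 rose from 2.45 to 9.57 FPKM. GARS-DT, transcribed divergently from the glycyl-tRNA synthetase gene, fell from 3.46 to 1.06 FPKM. Antisense transcripts fell at ALOX12 (ALOX12-AS1, 5.54 to 2.16 FPKM) and at BASP1 (BASP1-AS1, 3.72 to 1.62 FPKM). The counting is not stated to use strand, so reads of an antisense transcript and of the gene opposite cannot be told apart. Of 30 well-known long noncoding RNAs, the isoform table listed H19 (1156 to 270 FPKM) and TUG1 (89.0 to 37.5 FPKM) under their symbols, both lower. CYTOR, which is on that list under an earlier symbol, was listed under a clone name and rose, as given above.

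The 31 processed pseudogenes split 17 higher to 14 lower, and 16 of them (51.6%) lay on chromosome 6. That chromosome held 6.88% of the other placed isoforms with symbols and 6.18% of all processed pseudogenes in GENCODE. All 16 had names of RP libraries and none of the 15 on other chromosomes did, so chromosome and naming cannot be told apart. For 17 of the 31, the best-matching other gene was itself listed, under its own symbol, in 1 direction. In 15 of these 17 the pseudogene and that gene moved the same way, while SDHCP2 and GRK6P1 were lower and their parents higher. The same held for 19 of 25 over all placed members, these 17 included, and for 3 of 6 coding members. Matches of any identity and any length were counted, for example 83.3% identity for the pseudogene that matched EEF1A1. The coding members that moved the other way had short matches: TADA2B over 6.57% of its length, MTR over 3.13% and PPM1N over 34 bases. The long noncoding MTUS2-AS1, which also moved the other way, matched over 7.58%. The 3 coding members that moved the same way matched over at least 79.4%. These counts therefore cannot set coding members apart from pseudogenes. COX17P1 fell from 27.0 to 13.1 FPKM and COX17 from 40.4 to 17.9 FPKM. SPTLC1P2 rose from 10.4 to 35.0 FPKM and the main SPTLC1 isoform from 25.7 to 58.7 FPKM. TTC3P1, whose parent encodes a ubiquitin ligase, fell from 24.3 to 10.6 FPKM, and TTC3 from 42.6 to 16.6 FPKM. PRELID1P1 rose from 20.1 to 51.0 FPKM, and PRELID1, a mitochondrial lipid carrier, from 42.2 to 104 FPKM. ASS1P1, a copy of the urea cycle enzyme gene ASS1 with 92.1% identity, fell from 15.5 to 2.80 FPKM.

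Of all 136 placed members, 23 matched another gene at 95% identity or more over at least 50% of their length. Both limits were chosen after the data were seen. They left out SDHCP2 (93.6% identity) and GRK6P1 (93.2%), whose parents moved the other way. For 9 of the 23 the matching gene was listed, and under these limits the direction was the same in all 9. They included 3 coding members: H3F3C, a histone H3 variant gene that fell from 85.1 to 33.6 FPKM beside H3F3B (124 to 46.2 FPKM); LRRC37A3 beside LRRC37A; and CXorf40A beside CXorf40B. Not all of the 23 are copies, because genes that overlap a member in the genome were not set aside. An example is the read-through gene PPAN-P2RY11, which matched PPAN at 100% identity. Reads can be shared between matching genes of either kind, so the members' values are uncertain and are not independent of those of the matching gene. KRT17P2 rose from 10.9 to 34.5 FPKM and matched KRT17P1 at 98.1% identity over its whole length.

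**Figure D4:**
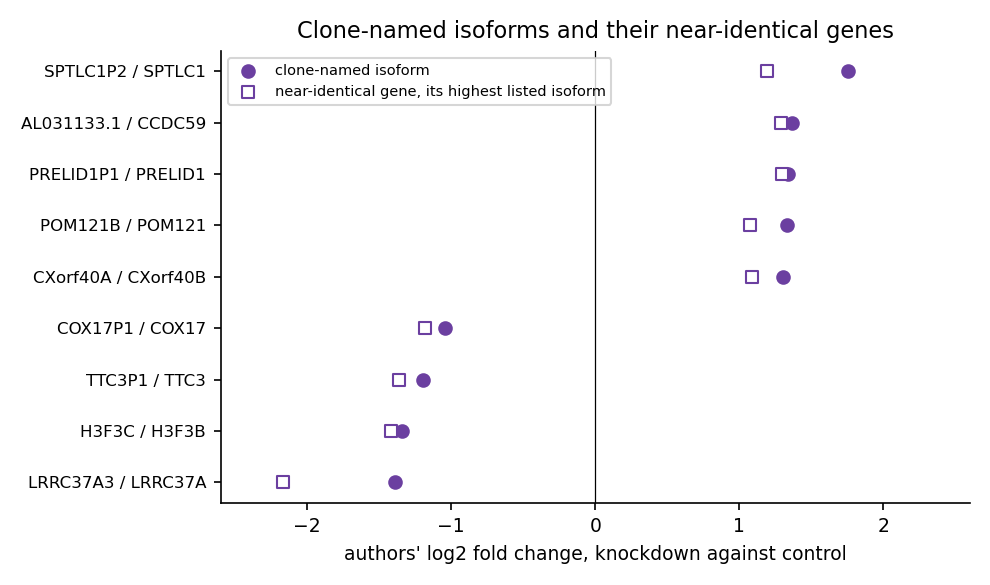
The authors' log2 fold change (x axis) of 9 placed members (filled circles) and of the highest listed isoform of the gene each matches at 95% identity or more (open squares), from the authors' deposited table. In all 9 pairs, taken by limits chosen after the data were seen, both symbols lie on the same side of 0.

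Several members were isoforms of the same gene, and 18 names had 2 or more listed isoforms (42 in all). In 13 of the 18 all listed isoforms moved in the same direction, and in 5 they did not. LUC7L3, a splicing factor related to a yeast U1 component (chr17:50719599-50752709 over its isoforms, plus strand), had 1 isoform that fell from 167 to 65.9 FPKM and another that rose from 19.7 to 43.9 FPKM. SPATS2L, a stress-granule protein, had 4 isoforms lower, the highest from 23.5 to 10.5 FPKM, and 1 listed at 0 in the control and 0.313 FPKM in the knockdown. PPM1N, a protein phosphatase, had 2 isoforms at 0 in the control (4.14 and 4.39 FPKM in the knockdown) and 1 that fell from 0.515 to 0.0791 FPKM. REXO5, an RNA exonuclease, had 3 isoforms, all lower, the highest from 5.29 to 1.46 FPKM. MEIOC, a meiosis factor, had 3 isoforms, all higher, the highest from 0.521 to 2.07 FPKM.

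The gene table, made from a separate count of reads per gene, listed 53 genes of placed members, 17 higher and 36 lower; 58.7% of all listed genes were lower. These 53 genes held 59 placed isoforms, and 57 of the 59 moved in the same direction as their gene. Both tables come from the same libraries. SPINK13 fell from 2442 to 472 normalized counts and DRAM1 rose from 1265 to 4557. KCNU1, a potassium channel gene, fell from 63.8 to 3.40 normalized counts. The 2 exceptions were the SPATS2L isoform at 0 in the control, and ZNF44, a zinc finger gene whose isoform fell from 0.518 to 0.160 FPKM while its gene count rose from 257 to 643. The other 77 placed isoforms were of genes outside the gene list.

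The intron table listed 40 introns in 22 loci of placed members, 14 higher and 26 lower, against 71.7% lower over all listed introns. SPINK13 had 4 introns lower, with log2 fold changes from −2.61 to −1.56 in the authors' deposited table. KCNU1 had 4 introns lower, from −5.63 to −4.82 in the authors' deposited table. KRT17P2 had 5 introns higher, from 1.52 to 1.85 in the authors' deposited table. DRAM1 had 1 intron higher, at 1.58 in the authors' deposited table. In 19 of the 22 loci the listed introns moved in the direction of the placed isoforms, and in 3 they did not. For RICTOR, a component of the mTORC2 kinase complex, the isoform fell from 7.27 to 3.30 FPKM, while 1 intron was higher by 2.03 on the log2 scale in the authors' deposited table. For TXNRD3, a thioredoxin reductase, the isoform rose from 0.117 to 0.931 FPKM, while 1 intron changed by −1.80 in the authors' deposited table. For ZNF44 the isoform was lower, while 1 intron changed by 1.46 in the authors' deposited table. The TXNRD3 and ZNF44 loci were joined with overlapping genes by the authors, so these introns may belong to a neighbour. The same limit holds for DPY19L2P2, EOGT, GOLGA8DP and PLEKHM1P1, joined loci that were counted among the 19.

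The exon table was the one table with a value in each library, and it listed 4 exons in 3 loci of placed members. IKBIP, which encodes a protein that interacts with the IκB kinase (chr12:98613405-98645113, minus strand), gave 429 and 448 normalized counts for exon 1 in the 2 control samples, and 1340 and 1237 after knockdown. The groups did not overlap: 439 ± 13.9 against 1289 ± 73.1 (SD, n = 2 each), a log2 difference of 1.55 (SE 0.15, limma on log2(value + 1), adjusted p = 0.00131 over 474 exons). Both listed IKBIP isoforms rose as well, from 23.2 to 55.5 and from 0.592 to 4.42 FPKM. The authors chose the listed exons as changed, and 96.2% of all 474 passed the same limma test, so the exon count says nothing particular about the members.

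The other 3 exons lay in loci where the authors joined overlapping genes, so their reads may belong to the neighbour. In the locus that joins BORCS8-MEF2B with MEF2B, a transcription factor gene, exon 20 was at 40.2 and 56.5 in the control and at 6.95 and 2.78 in the knockdown. Exon 22 of the same locus was at 8.80 and 10.5 in the control and at 20.8 and 20.4 in the knockdown. The groups did not overlap at either exon, and the exons moved in opposite directions, by −3.15 (SE 0.43, limma adjusted p = 0.00269) and 1.02 (SE 0.16, limma adjusted p = 0.00415) on the log2 scale. Without control replicate 2, exon 20 no longer passed the threshold (limma adjusted p = 0.0517), although its log2 difference was −2.91. In that fit the lone control library is assumed to vary like the knockdown libraries, and limma adjusted p-values over the alternatives ranged from 0.00391 to 0.0517. Exon 7 of the joined DERL1 locus was at 124 and 94.9 in the control and at 128 and 116 in the knockdown, so its groups overlapped (limma adjusted p = 0.467).

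**Figure D5:**
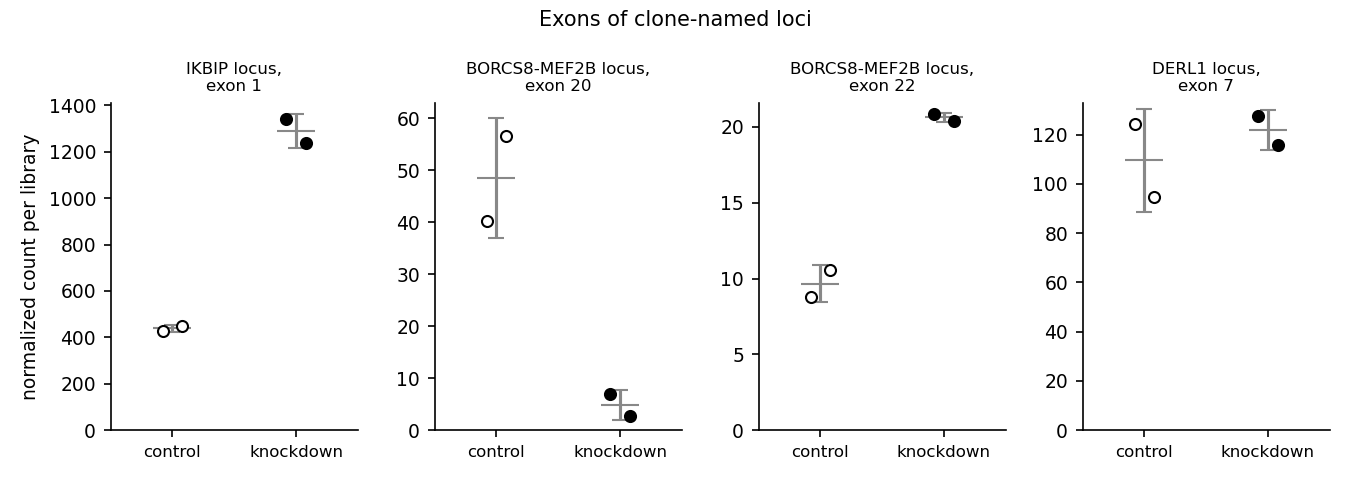
Normalized counts of 4 exons in each library (y axis from 0; open circles control, filled circles knockdown), with the group mean and SD as grey bars (n = 2 each). The groups are apart for IKBIP exon 1 (429 and 448 against 1340 and 1237) and overlap for DERL1 exon 7.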

How the data were processed

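HepG2 libraries (2 control, 2 METTL3 knockdown) were described by tables that the authors deposited. Per the submitters' processing notes, the tools were CASAVA 1.8, TopHat 1.2.0, HTSeq, DESeq 1.5.24, Cufflinks and Cuffdiff 1.0.3 on hg18. The isoform table holds the authors' FPKM per group, and a fold change as natural log with its p-value, per the file headers. The gene and intron tables hold the authors' normalized count signal per group, ratio and log2 fold change; the exon table holds the authors' normalized count signal per library. No total counts are given, so depth is unknown. Natural logs were divided by ln 2.

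Members were taken by the naming rule. The members and lists were chosen with earlier results of these data known. Identifiers were joined to GENCODE 29. They were accepted where the chromosome equalled that of most of the 3 nearest rows on each side with an unchanged symbol. The distance also had to be within 10 Mb. Of isoforms with an unchanged symbol 99.3% passed this, but the same isoforms served as the neighbours. Of other isoforms with a changed symbol 93.5% passed, and of the clone-named identifiers that were found 79.1%. Printed coordinates are GRCh38, not hg18. Isoforms without replicates were described by counts and medians. Named isoforms were those of largest change, highest level, highest level at 0, several isoforms, or presence in another table; pseudogenes, near copies, small RNAs and long noncoding RNAs outside that rule were named after their values were seen. The best match in another gene was found with BLAST+ 2.17.0; its 95% identity and 50% length limits were chosen after seeing the data. Exons were tested with limma 3.58.1 (R 4.3.3) on log2(value + 1), Benjamini-Hochberg adjusted at 0.05, and the script was tested on simulated data. Alternatives were other filters, pseudocounts, centring, name subsets, the replicate block and leaving out each library.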

Additional observations from a re-analysis of the deposited data

How the results depend on the processing

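Depth is unknown, 1 value per group carries no error, and isoforms that did not change are not in the table. Because no listed isoform lies between −1 and 1 on the log2 scale, the median log2 fold change of all 699 members (1.003, with isoforms at 0 ranked at the end of their direction) sits at the edge of an empty interval and changes sign easily. The median became −1.04 where the group mean was 1 FPKM or more, −1.13 without isoforms at 0, and 2.10 after recentring on the median of all isoforms with both groups above 0 (−1.10). The share higher was 39.7% without isoforms at 0, 54.7% in RP libraries and 54.8% after recentring. The share at 0 was 49.7% at the authors' adjusted p under 0.01. The median higher-group FPKM became 12.4 where the group mean was 1 FPKM or more, 3.81 without isoforms at 0 and 0.780 in RP libraries. Past 2-fold were 699 members, as the authors' list requires, but 390 where the group mean was 1 FPKM or more, 383 without isoforms at 0, 148 in RP libraries (fewer isoforms in each case) and 326 on log2(FPKM + 1). Of the 4 exons, 3 passed the limma threshold, also with the replicate block (3), 1 of the 2 left with a mean of at least 50, and 2 to 3 leaving out 1 library. DERL1 exon 7 had a log2 difference of −0.033 without control replicate 2 and 0.36 without control replicate 1, against 0.16 with all libraries. The same-numbered libraries' deviations correlated at 0.0012, so the numbers were not taken to pair them, and the replicate block changed no call of the 4 exons; over all 474 exons it gave 447 calls against 456. All names have a dot suffix, so that alternative changed nothing.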
